A study of Homo sapiens with 12 samples.

Results

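The 10 genes described here write, read or erase N6-methyladenosine (m6A) and were taken by symbol from the deposited expression table, which lists 25268 symbols over 12 libraries. They are METTL3, METTL14 and WTAP (writers), YTHDF1, YTHDF2, YTHDF3, YTHDC1 and YTHDC2 (readers), and FTO and ALKBH5 (erasers). Each symbol had 1 row, and all 10 genes were among the 14676 with a mean of at least 0.5 FPKM, the minimum used for testing. FPKM are mapped fragments scaled to transcript length and library size, which allows an approximate comparison between genes as well as between libraries. An order of genes by FPKM also depends on the annotation used and on reads shared with overlapping genes.

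The libraries came from HEK293, a human embryonic kidney cell line, transiently transfected with 2 µg of plasmid. RBMX cells received the pCMV6-HIS-HA-RBMX vector, which expresses tagged RBMX from a viral promoter, and control cells the same vector without an insert. The empty vector is named in the study's methods, whereas the sample titles call the control cells WT and their value columns are labelled HIS. Each vector had 3 cultures, and each culture gave 1 library of total RNA and 1 of polysomal RNA, hence 4 groups of 3. Both RNAs of a culture came from 1 sucrose gradient of cycloheximide-treated cells, and total RNA was the pool of 20% of each fraction. The share of cells that took up plasmid was not given in the sources used here, so a level is an average over transfected and untransfected cells.

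m6A is the commonest internal modification of mRNA. A nuclear complex deposits it: METTL3 is the catalytic subunit, METTL14 is its partner that holds the RNA, and WTAP brings the pair to nuclear speckles. YTH proteins bind the modified base, YTHDF1, YTHDF2 and YTHDF3 in the cytoplasm, and YTHDC1 in the nucleus, while YTHDC2 is also an RNA helicase. FTO and ALKBH5 are dioxygenases that remove the methyl group. RBMX, also called hnRNP G, is an RNA-binding protein for which m6A-dependent binding is known, and this is the background of setting these genes beside its overexpression.

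RBMX itself was read first, as the check of the vectors. It was at 147, 145 and 108 FPKM in control total RNA and at 1731, 2073 and 1460 FPKM in RBMX total RNA. Polysomal RNA had 146, 148 and 87.4 FPKM in control cells and 1167, 1328 and 1072 FPKM in RBMX cells. On the log2 scale RBMX cells exceeded controls by 3.71 in total RNA, with a limma adjusted p of 0.00269. The polysomal value was 3.25, with a limma adjusted p of 0.0415, and its call was lost with no filter (0.0655) and when any of 4 of the 6 libraries was left out (0.115 to 0.213), while all 3 RBMX libraries stayed far above all 3 controls. Control culture 3 stood apart from the other cultures in both fractions. Its Spearman correlation with control cultures 1 and 2 was 0.976 to 0.983, against 0.997 to 0.998 between those 2. Pairs of RBMX libraries ranged from 0.983 to 0.997, so that the lowest RBMX pair was at the top of the range of control culture 3. The share of genes over 1.5-fold lower in control culture 3 than in the other controls was 6.52% for total and 10.4% for polysomal RNA, against at most 1.74% in any other library. All 7 genes of a HEK293 list were expressed, while 0 of 4 blood and 0 of 3 liver markers passed the filter. Of 4 fibroblast markers, COL1A1 and LUM passed and COL1A2 and DCN did not, and the sum of the 4 was 4.01 to 5.90 FPKM in control and 6.53 to 7.50 FPKM in RBMX total RNA, and 4.38 to 6.89 FPKM and 7.79 to 9.46 FPKM in polysomal RNA. COL1A1 was apart between vectors in both fractions, with log2 fold changes of 0.43 and 0.44, and LUM in total RNA only, at 0.13, with no limma adjusted p under 0.254. The part of this list in the values of the m6A genes was not tested.

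No m6A writer, reader or eraser passed the threshold of 0.05 on the limma adjusted p in any of the 5 comparisons made, and the share of all genes that passed was itself low. At an unadjusted limma p under 0.05 there were 2 of the 10 between vectors in total RNA, against 18.8% of all genes, and 3 in polysomal against total RNA of RBMX cells, against 23.0% of all genes, with 0 in the other comparisons. METTL3 and METTL14, the catalytic pair, were higher in all 3 RBMX total libraries than in all 3 control total libraries, and ALKBH5 was lower in all 3 RBMX polysomal libraries. In RBMX cells METTL3, WTAP and YTHDF2 were lower and YTHDC1 higher in all polysomal than in all total libraries. Between 10.0% and 16.2% of all genes separated in a given direction in these comparisons, and each count is given with its own share. FTO was the gene whose values depended most on control culture 3.

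**Figure D1:**
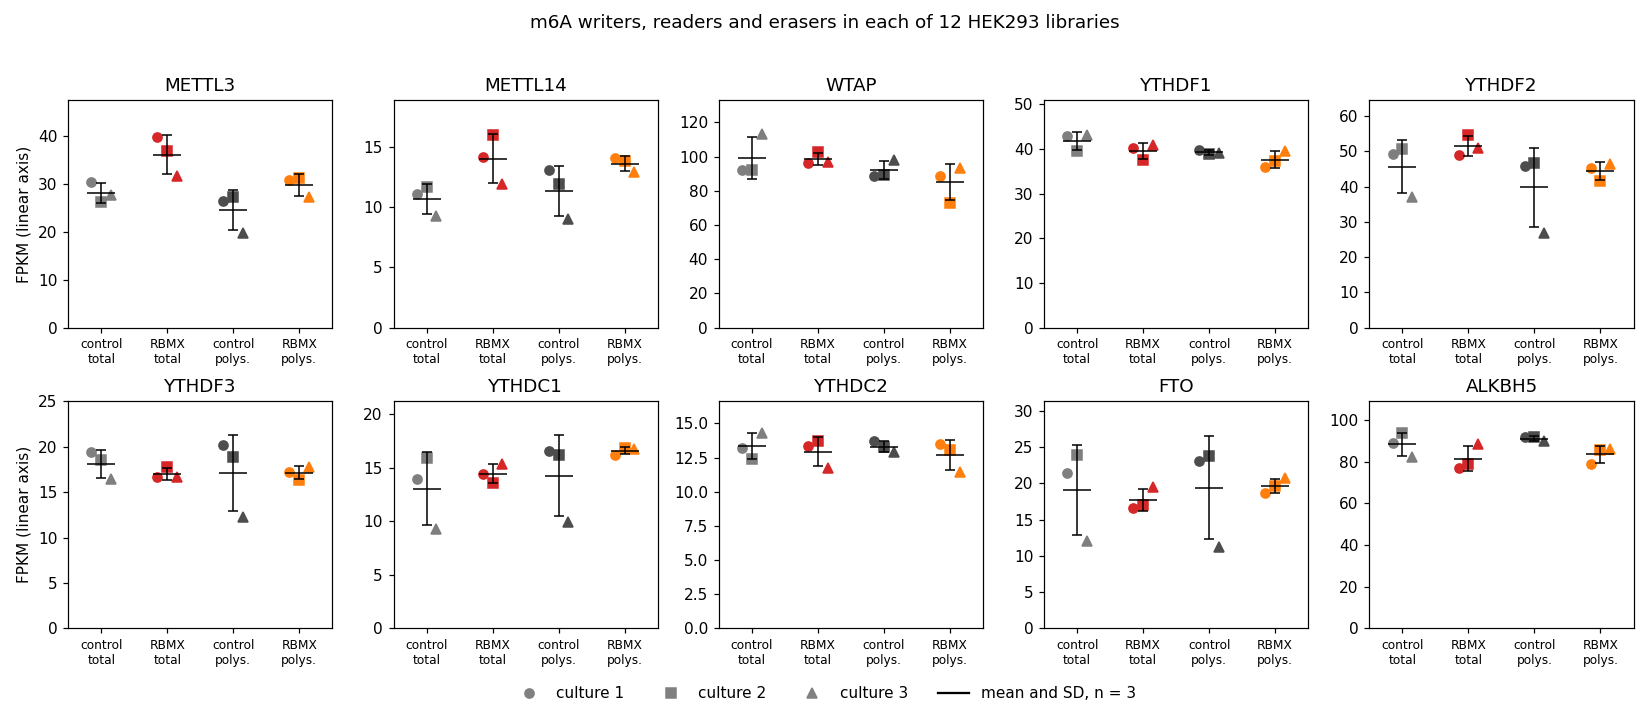
FPKM of the 10 m6A genes (linear vertical axes from 0) in the 4 groups of 3 libraries, with marker shapes for cultures and black bars for mean and SD. METTL3 and METTL14 lie higher in RBMX than in control total RNA, and control culture 3 (grey triangles) is the lowest control for FTO, at 12.1 FPKM in total and 11.2 FPKM in polysomal RNA.

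In control total RNA the levels spanned from 10.7 FPKM for METTL14 to 99.2 FPKM for WTAP. WTAP and ALKBH5 (mean 88.4 FPKM) headed the order, and their ranges over the 3 libraries overlapped. YTHDF2 (45.7 FPKM) and YTHDF1 (41.8 FPKM) followed and also overlapped. METTL3 came next at 28.1 FPKM, separate from both neighbours. FTO (19.1 FPKM) overlapped YTHDF3 (18.1 FPKM), and YTHDC2 (13.3 FPKM), YTHDC1 (13.05 FPKM) and METTL14 overlapped in turn. Over all 12 libraries, ALKBH5 exceeded YTHDF2, YTHDF1 exceeded METTL3 and METTL3 exceeded FTO in 12 of 12, whereas WTAP exceeded ALKBH5 in 8 of 12. By mean level, METTL14 stood above 51.1% of the genes tested and WTAP above 90.9%.

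The writers differed in how steady they were. METTL3 had 30.3, 26.2 and 27.7 FPKM in control total RNA and 39.8, 36.8 and 31.7 FPKM in RBMX total RNA. Its lowest RBMX library was above its highest control library, although by little. The log2 fold change, taken like all others on log2(FPKM + 1), was 0.35 ± 0.10 (SE, n = 3 and 3; 95% interval 0.09 to 0.60), with an unadjusted limma p of 0.0164 and a limma adjusted p of 0.193. METTL14 had 11.1, 11.6 and 9.27 FPKM in control total RNA and 14.2, 16.0 and 11.9 FPKM in RBMX total RNA. These groups did not overlap either. METTL14 had a log2 fold change of 0.36 ± 0.13 (SE; 95% interval 0.03 to 0.69), with a limma p of 0.0368 before and 0.240 after adjustment.

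Both genes thus met an unadjusted 0.05, as did 18.8% of all genes tested, and neither met the adjusted threshold, as did 0.164% of all genes. Of the 10 genes, 2 had RBMX total libraries that were all above the controls, and 11.9% of all genes did. None was below in this way, against 15.4% of all genes. Since 3 libraries against 3 allow an exact permutation p no lower than 0.1, two-sided, separation alone could not pass 0.05. Without control culture 3, METTL3 was at 0.34 and METTL14 at 0.27.

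WTAP, the most abundant writer, had 92.1, 92.2 and 113 FPKM in control total RNA and 96.4, 103 and 97.0 FPKM in RBMX total RNA. Its groups overlapped, and its log2 fold change was -0.0021, with a 95% interval from -0.25 to 0.24. Unlike most of the genes, WTAP was higher in control culture 3 than in the other controls, by 0.30 in log2 in total RNA and 0.14 in polysomal RNA. Without that library the RBMX effect on WTAP in total RNA was 0.097.

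In polysomal RNA, METTL3 had 26.4, 27.3 and 19.8 FPKM in control cells and 30.7, 31.3 and 27.2 FPKM in RBMX cells. METTL14 had 13.1, 11.9 and 9.04 FPKM in control cells and 14.1, 13.8 and 12.9 FPKM in RBMX cells. Both genes overlapped between the vectors here, since RBMX culture 3 fell inside the range of control cultures 1 and 2. The log2 fold changes were 0.28 ± 0.14 (SE) for METTL3 (limma adjusted p = 0.467) and 0.26 ± 0.14 (SE) for METTL14 (limma adjusted p = 0.488). Control culture 3 was the lowest polysomal control for each, and without it the values were 0.14 and 0.11.

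The ratio of METTL3 to METTL14, both in FPKM, differed little between vectors. In total RNA it was 2.66 ± 0.377 (SD, n = 3) in control and 2.59 ± 0.256 in RBMX cells. Polysomal RNA had 2.17 ± 0.137 in control and 2.18 ± 0.0777 in RBMX cells, below the total means. The total and polysomal ranges overlapped in control cells, and in RBMX cells the highest polysomal ratio, 2.26, was under the lowest total ratio, 2.31.

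**Figure D2:**
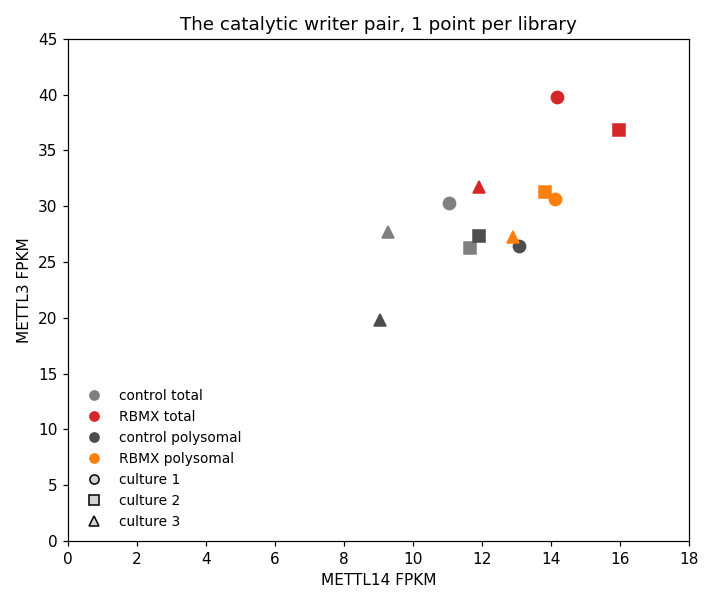
METTL3 against METTL14 in each of the 12 libraries (both axes in FPKM, linear, from 0), coloured by group, with marker shapes for cultures. RBMX total libraries (red) reach 39.8 FPKM for METTL3 and 16.0 FPKM for METTL14, and control culture 3 polysomal RNA is the lowest point at 19.8 and 9.04 FPKM.

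METTL3 overlaps a neighbouring gene. In GENCODE v29 on GRCh38, METTL3 lies at chr14:21498133-21511375 on the minus strand, and 345 of the 2015 bases of its transcript overlap exons of TOX4 on the opposite strand. Whether the libraries kept strand is not given in the sources used here, so shared reads cannot be assigned. TOX4 had 16.6 ± 2.87 FPKM (SD, n = 3) in control and 18.6 ± 0.763 FPKM in RBMX total RNA, with overlapping groups and a log2 fold change of 0.17 (limma adjusted p = 0.525). TOX4 was looked at because of this overlap, after the values of METTL3 were seen. METTL14 lies at chr4:118685368-118715433 on the plus strand and shares no exonic base with another gene. WTAP, at chr6:159725585-159756319, overlaps SOD2 on the opposite strand by 298 bases and has 4.27% of its 100-base stretches repeated elsewhere among annotated transcripts. Added over every overlapping gene, SOD2 included, its shared exonic bases came to 596, where a base shared with several genes counts for each.

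The writers' own transcripts carry GGACT, the commonest core in which METTL3 and METTL14 methylate the A. On the annotated strand only, the METTL3 transcript (ENST00000298717.8) holds 4 matches, or 1.99 per kilobase, above 89.3% of 19669 coding genes, whose median was 0.939 per kilobase. All 4 lie in coding sequence. METTL14 (ENST00000388822.9) holds 8 matches, or 1.20 per kilobase, 2 of them coding. The YTHDC1 transcript used holds 0, although 87.5% of the genes hold at least 1. Each gene was searched in 1 transcript only, that with the longest coding sequence. The sequences below show 3 coding matches with both flanks in 1 exon, for the 2 genes whose total RNA separated. At most the first 2 such matches of each gene were taken, so METTL3 may have others. The sequences have GGACT in capitals and 10 reference bases on each side. They are given 5′ to 3′ on the gene's strand, from the GRCh38 reference.
METTL3, exon 1, chr14:21511165-21511189, minus strand: agaagcagctGGACTctctgcggga
METTL3, exon 1, chr14:21511126-21511150, minus strand: ggcggaagcaGGACTcggggcactt
METTL14, exon 10, chr4:118705651-118705675, plus strand: gcacagacggGGACTtcattcatgc
A match to 5 letters is a description of the sequence. Methylation was not measured in these libraries.

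Among the cytoplasmic readers, YTHDF1, which is known for promoting translation, was the steadiest of the 10 genes, with its highest library only 1.20 times its lowest. It had 42.8, 39.5 and 43.1 FPKM in control total RNA and 40.1, 37.6 and 41.0 FPKM in RBMX total RNA. The groups overlapped, and the log2 fold change was -0.078 in total and -0.061 in polysomal RNA.

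YTHDF2 recruits the deadenylase that shortens methylated mRNAs. It had 49.2, 50.7 and 37.2 FPKM in control total RNA and 49.1, 54.6 and 50.9 FPKM in RBMX total RNA. In polysomal RNA it had 45.9, 46.6 and 26.8 FPKM in control and 45.3, 41.5 and 46.3 FPKM in RBMX cells. Control culture 3 was the low library in both fractions, by 0.42 and 0.76 in log2 below the other controls. The log2 fold change was 0.18 in total and 0.19 in polysomal RNA with all libraries, and 0.043 and -0.060 without that culture. Part of the YTHDF2 transcript, 3.26% of its 100-base stretches, is repeated in the pseudogene YTHDF2P1.

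YTHDF3, which acts with the other YTHDF proteins, had 16.5 to 19.4 FPKM in control and 16.6 to 17.8 FPKM in RBMX total RNA. Its log2 fold change was -0.081 in total and 0.03 in polysomal RNA, and without control culture 3 it was -0.14 and -0.18. The 3 YTHDF genes together made 106 ± 7.81 FPKM (SD, n = 3) in control and 108 ± 2.09 FPKM in RBMX total RNA. YTHDF2 held 43.1% ± 4.21 of that sum in control and 47.6% ± 1.76 in RBMX cells, and YTHDF3 held 17.1% ± 0.211 and 15.8% ± 0.427. The YTHDF3 share was lower in each RBMX total library than in each control library, a comparison chosen after its values were seen. In polysomal RNA the shares overlapped, at 17.6% ± 1.69 in control and 17.3% ± 0.179 in RBMX cells.

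The nuclear reader YTHDC1, which acts in splicing and export of methylated RNA, had 14.0, 15.9 and 9.25 FPKM in control total RNA and 14.4, 13.6 and 15.4 FPKM in RBMX total RNA. Polysomal RNA held 16.6, 16.3 and 9.90 FPKM in control cells and 16.2, 16.8 and 16.8 FPKM in RBMX cells. Only the library of control culture 3 was outside a narrow band in each fraction. The log2 fold changes of 0.17 and 0.24 became -0.044 and 0.013 without it. YTHDC2 stayed between 11.5 and 14.3 FPKM in all 12 libraries, with log2 fold changes of -0.040 in total and -0.066 in polysomal RNA.

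The erasers differed from each other. FTO had 21.4, 24.0 and 12.1 FPKM in control total RNA and 16.6, 17.1 and 19.5 FPKM in RBMX total RNA. The RBMX libraries lay between control culture 3 and the other 2 controls. The log2 fold change was -0.055 ± 0.25 (SE, 95% interval -0.69 to 0.58). In polysomal RNA, FTO had 23.2, 23.9 and 11.2 FPKM in control and 18.7, 19.7 and 20.7 FPKM in RBMX cells, the same arrangement, and the log2 fold change was 0.09 (95% interval -0.64 to 0.82). Without control culture 3, FTO was lower in RBMX cells in both fractions, with log2 fold changes of -0.34 ± 0.093 (SE, limma adjusted p = 0.145) for total and -0.25 ± 0.059 (SE, limma adjusted p = 0.246) for polysomal RNA. Leaving out control culture 1 or 2 in place of culture 3 gave 0.048 and 0.13 in total RNA, and 0.25 and 0.27 in polysomal RNA. The direction of FTO thus turned with the control culture left out, and no estimate passed the threshold.

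ALKBH5 had 89.0, 93.7 and 82.4 FPKM in control total RNA and 77.0, 78.9 and 88.3 FPKM in RBMX total RNA. In polysomal RNA it had 91.8, 91.9 and 89.8 FPKM in control and 78.8, 85.7 and 86.1 FPKM in RBMX cells. The polysomal groups did not overlap, while the total groups did. The log2 fold change was -0.12 ± 0.069 (SE, limma adjusted p = 0.493) in polysomal RNA, and -0.12 in total RNA. ALKBH5 was the 1 gene of 10 with all RBMX polysomal libraries below the controls, against 12.5% of all genes, and 0 of 10 were above, against 10.0% of all genes. The adjusted threshold was passed by 0.0477% of all genes in this comparison. ALKBH5 shares 357 exonic bases with AC087164.1 on the opposite strand.

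**Figure D3:**
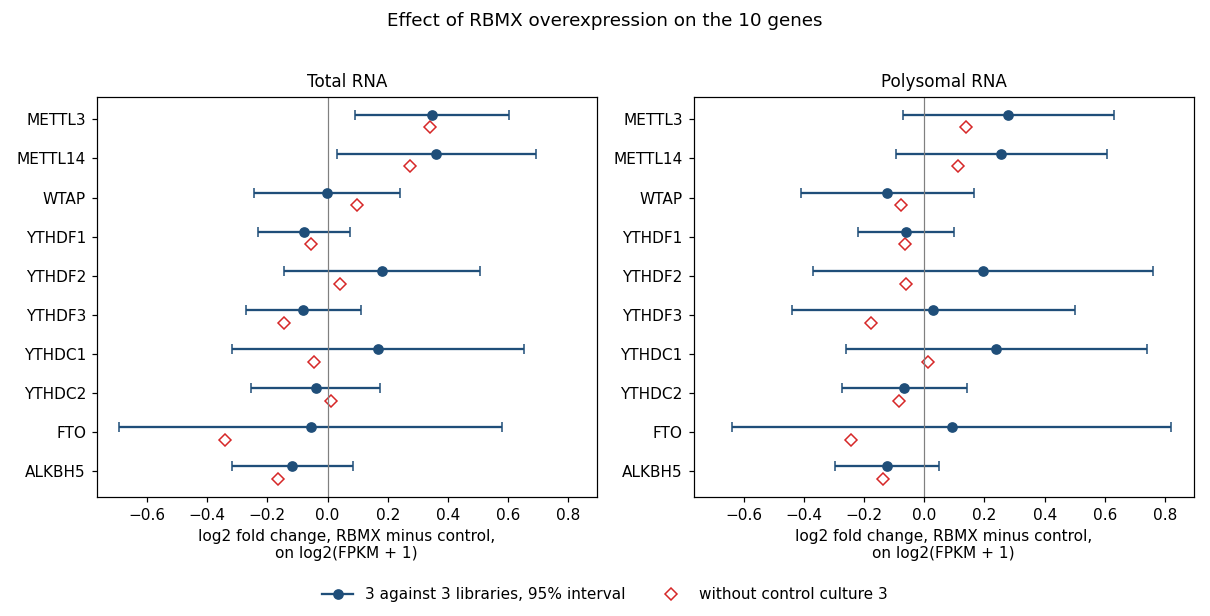
Log2 fold change of RBMX over control cells for the 10 genes, in total (left) and polysomal RNA (right), on log2(FPKM + 1). Filled points with bars are estimates and 95% limma intervals from 3 against 3 libraries, and open diamonds are estimates without control culture 3. METTL3 and METTL14 in total RNA are the only intervals clear of 0, before adjustment, and FTO moves from -0.055 to -0.34 in total RNA.

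As a group, the 10 genes moved no more than genes in general under RBMX. The median size of their log2 fold change was 0.099 in total RNA, against 0.127 over all genes tested, and 0.124 against 0.135 in polysomal RNA. In total RNA 4 of the 10 estimates were above 0 and in polysomal RNA 6, with medians of -0.021 and 0.06. The summed level of the 10 genes was 378 ± 10.7 FPKM (SD, n = 3) in control and 383 ± 5.53 FPKM in RBMX total RNA.

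Polysomal RNA was then set against total RNA, which asks how far an mRNA's level on polysomes departs from its overall level. Total RNA here includes the polysomal fractions, so the contrast is smaller than one between separate pools. In control cells none of the 10 genes had separate groups, against 7.63% of all genes with all polysomal libraries higher and 7.31% with all lower. Estimates ran from -0.22 for YTHDF2 to 0.12 for YTHDC1, and the lowest limma adjusted p was 0.769. Over all genes 0.0818% passed. This fit did not pair both RNAs of a culture. With the culture as a block, 21% of all genes had an unadjusted limma p under 0.05, against 8.04% without it. In either fit 0 of the 10 genes did.

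In RBMX cells METTL3, WTAP and YTHDF2 were lower in all 3 polysomal libraries than in all 3 total libraries, and YTHDC1 was higher. Thus 3 of 10 were lower, against 16.2% of all genes, and 1 of 10 was higher, against 14.6%. METTL3 had a log2 fold change of -0.27 ± 0.10 (SE, limma adjusted p = 0.202) and WTAP of -0.22 ± 0.10 (SE, limma adjusted p = 0.261). YTHDF2 was at -0.21 ± 0.065 (SE, limma adjusted p = 0.159). YTHDC1, at 0.19 ± 0.057 (SE), had a limma adjusted p of 0.156. None passed the threshold, which 1.34% of all genes did. With the culture as a block, since both RNAs of a culture came from 1 gradient, the limma adjusted p values of these genes were 0.172 for METTL3, 0.304 for WTAP, 0.239 for YTHDF2 and 0.216 for YTHDC1. The block left 6 genes called in control and 4 in RBMX cells over the whole table, and none of the 10.

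In control cells the same 4 genes had estimates of -0.20 (METTL3), -0.10 (WTAP), -0.22 (YTHDF2) and 0.12 (YTHDC1), each on the same side of 0 as in RBMX cells. Leaving out both libraries of control culture 3 gave -0.066, -0.048, -0.11 and 0.13. That setting called 199 genes over the whole table, against 12 with all libraries, and none of the 10.

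**Figure D4:**
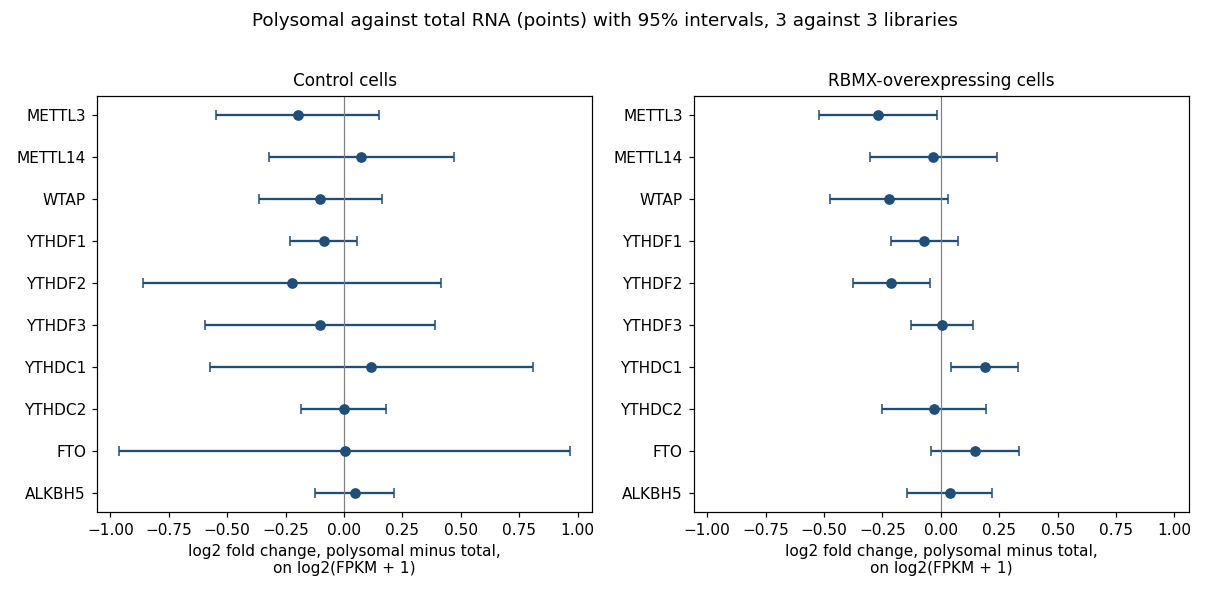
Log2 fold change of polysomal over total RNA for the 10 genes in control (left) and RBMX cells (right), on log2(FPKM + 1), with 95% limma intervals from 3 against 3 libraries. Cultures were not paired in these fits. In RBMX cells the points of METTL3, YTHDF2 and YTHDC1 have intervals clear of 0 before adjustment, at -0.27, -0.21 and 0.19.

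The difference of the RBMX effect between the fractions was tested directly over all 12 libraries. It ran from -0.12 for WTAP to 0.15 for FTO, with every limma adjusted p at 1.00. For METTL3 it was -0.069 (95% interval -0.47 to 0.33) and for METTL14 -0.11 (95% interval -0.55 to 0.34). Over all genes 0.0204% passed. This fit did not pair both RNAs of a culture, and only 0.6% of all genes had an unadjusted limma p under 0.05. With the culture as a block that share was 2.15%, with 0 of the 10 genes among them. High adjusted p values from such a fit do not show that the RBMX effect was equal in both fractions.

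The wider m6A machinery was read from 6 lists with 49 genes, all of which passed the filter: other subunits of the writer complex, other RNA methyltransferases, other reported readers, the deadenylation and decay partners of YTH proteins, the S-adenosylmethionine cycle that supplies the methyl group, and the AlkB relatives of the erasers. No gene of these lists passed the threshold between RBMX and control cells, in total or polysomal RNA, and the lowest limma adjusted p was 0.189. At an unadjusted limma p under 0.05 there were 5 in total and 1 in polysomal RNA, against 18.8% and 11.7% of all genes. In total RNA 26 of the 49 estimates were above 0 and 5 genes had RBMX libraries all above the controls, with 7 all below, against 11.9% and 15.4% of all genes. Polysomal RNA had 29 estimates above 0, with 5 genes all above and 3 all below, against 10.0% and 12.5% of all genes.

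The 5 writer cofactors included RBM15B, an adaptor that brings the complex to its targets, at -0.076 in total RNA, and CBLL1 (HAKAI), at -0.10 in total and -0.13 in polysomal RNA with groups apart in both. Among the 11 other readers, HNRNPA2B1 and HNRNPC were the most abundant and were at 0.32 each in total RNA with overlapping groups. HNRNPA2B1 had 639, 652 and 381 FPKM in control and 640 to 695 FPKM in RBMX total RNA. HNRNPC had 170, 184 and 99.0 FPKM in control and 179 to 189 FPKM in RBMX total RNA. Control culture 3 was the low library for both. IGF2BP3, a reader that stabilises mRNA, had 27.2 FPKM in control and 23.6 FPKM in RBMX total RNA, a log2 fold change of -0.20 (limma adjusted p = 0.198). Of the 6 methyltransferases, METTL5, which modifies ribosomal RNA, was at -0.15 in total RNA, and its partner TRMT112 at 0.0074.

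Of the 13 decay partners, CNOT7, a catalytic deadenylase of the CCR4-NOT complex that YTHDF2 recruits, had 65.9 FPKM in control and 53.1 FPKM in RBMX total RNA. Total RNA gave CNOT7 a log2 fold change of -0.30 ± 0.10 (SE, limma adjusted p = 0.225). Its polysomal value was -0.40 ± 0.15 (SE, limma adjusted p = 0.416), and the groups were apart in both fractions. CNOT6L, another deadenylase, was at -0.20 in total RNA, and the scaffold-bound subunit CNOT3 at 0.20 with overlapping groups. CNOT3 had 59.2, 55.8 and 38.4 FPKM in control total RNA, the lowest in control culture 3, and 53.7 to 62.3 FPKM in RBMX total RNA. In the AlkB family of 7, ALKBH2, a DNA repair enzyme, was at 0.22 in total RNA and ALKBH6 at 0.08. In the methionine cycle AHCY, which clears S-adenosylhomocysteine, was at 0.22 with overlapping groups. AHCY had 147, 145 and 66.5 FPKM in control total RNA, the lowest in control culture 3. Every RBMX total library was below control cultures 1 and 2 for AHCY and above control culture 3, so its positive value rested on that culture.

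MAT2A is the synthetase that makes S-adenosylmethionine, and its own mRNA is a known target of the methyltransferase METTL16. It was the only gene of the 49 past the threshold in a comparison. That comparison was polysomal against total RNA of RBMX cells, in which 1.34% of all genes passed, 192 of 196 of them lower. In it 17 of the 49 had an unadjusted limma p under 0.05, against 23.0% of all genes. Groups were apart for 11 higher and 10 lower, against 14.6% and 16.2% of all genes. Estimates of the 49 ran from -0.51 to 0.46, so shifts larger than that of MAT2A did not pass. MAT2A had 98.0, 103 and 96.1 FPKM in RBMX total RNA and 78.2, 73.5 and 75.5 FPKM in RBMX polysomal RNA. The polysomal level was lower by a log2 of -0.38 ± 0.051 (SE, limma adjusted p = 0.0447). With the culture as a block the limma adjusted p was 0.143, and leaving out any 1 of the 6 libraries gave 0.0895 to 0.191. Control cells had 88.3, 79.4 and 86.8 FPKM in total and 73.9, 74.4 and 58.0 FPKM in polysomal RNA, also without overlap, a log2 fold change of -0.31 (limma adjusted p = 0.609). The difference between these contrasts, -0.075, had a limma adjusted p of 1.00. MAT2A in total RNA was 0.22 higher in RBMX than in control cells, with no overlap and a limma adjusted p of 0.189.

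The likeness of each gene's pattern to others was described by Pearson's correlation of log2(FPKM + 1) over the 12 libraries, which share cultures and vectors. METTL3 was most like LUC7L (0.963) and GUSB (0.952), and METTL14 most like CEBPZ (0.963) and NUB1 (0.962). METTL3 and METTL14 correlated at 0.737, and METTL14 ranked 461 among 14675 genes by likeness to METTL3. FTO was most like PEG10 (0.994) and NEFL (0.990), YTHDC1 most like KLC1 (0.991) and RASA3 (0.989), and YTHDF2 was like CNOT10 (0.986). FTO and YTHDC1 correlated at 0.900 with each other. Control culture 3 was the lowest culture for FTO, YTHDC1 and YTHDF2 in both fractions, and its part in these correlations was not tested. WTAP was most like METTL4 and C10orf32 (0.973 each), YTHDF3 like HSPA13 (0.985) and RP2 (0.980), and ALKBH5 like TTLL5 (0.951) and TTC9 (0.946). YTHDF1 and YTHDC2, the steadiest readers, had weaker nearest genes, PABPC4L (0.888) and LOC100506022 (0.877) for YTHDF1 and ZNF518A (0.876) for YTHDC2.

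Control culture 3 was lower than the mean of the other controls in 7 of the 10 genes in total RNA and in 9 of 10 in polysomal RNA. The size was greatest for FTO, at -0.85 in log2 in total and -1.01 in polysomal RNA, followed in total RNA by YTHDC1 at -0.63. METTL3 was at -0.023 in total and -0.42 in polysomal RNA, and METTL14 at -0.27 and -0.43. ALKBH5, YTHDF1 and YTHDC2 were within 0.15 of the other controls in both fractions. The summed level of the 7 HEK293 genes also spread more over control total libraries, 459 to 922 FPKM, than over RBMX total libraries, 869 to 900 FPKM, and what sets the culture apart was not tested.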

How the data were processed

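The deposited FPKM were made by the authors, 1 value per gene symbol and library. Their processing notes name CASAVA 1.8, TopHat2 2.0.13, Cufflinks 2.2.1, Cuffnorm and hg19. The gene annotation of the table is not given in the sources used here. No read counts were given, so absolute depth is unknown. Many low values formed steps, and from them the relative depth of the libraries spanned 0.785 to 1.26 times that of control total culture 1 (0.785 and 1.24 for control culture 3). In the other libraries 44.9% to 63.7% of the low values were at such steps, so these depths are approximate.

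From these values log2(FPKM + 1) was computed for 14676 genes with a mean of at least 0.5 FPKM. The 5 comparisons were fitted with limma 3.58.1 (R 4.3.3, empirical Bayes with trend) on the libraries of the groups compared, all 12 for the difference between fractions, with Benjamini-Hochberg adjustment over all genes and a threshold of 0.05. The fits were tested on simulated data with independent noise in each library and planted changes larger than those of the m6A genes. That simulation did not cover deviations shared within a culture or small effects. The replicates were separate cultures. The pairing of polysomal with total RNA comes from the shared gradient, and same-culture deviations correlated at 0.61, 0.69 and 0.835 in control and 0.222, 0.0244 and 0.662 in RBMX cells. The block by culture was an alternative.

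The genes, lists and tests were chosen with earlier results of these data known. Named genes were the 10, RBMX, listed genes past the threshold, the 2 most abundant of each list, the one with the smallest p in each RBMX comparison, and the 2 most alike to each of the 10. A few genes that this rule names are not reported here. KIAA1429 stands in the table for VIRMA. Coordinates and sequences came from GENCODE v29 on GRCh38, not the build of the values. Alternatives were the pseudocount, filter, scaling, variance trend, block, all 12 libraries in 1 fit and each library left out.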

Additional observations from a re-analysis of the deposited data

How the results depend on the processing

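Under every alternative run, 0 of the 10 genes passed the threshold in any comparison. The lowest limma adjusted p was 0.127 in RBMX against control total RNA, 0.246 in polysomal RNA, 0.154 and 0.112 for polysomal against total RNA in control and RBMX cells, and 0.932 for the difference. METTL3 and METTL14 kept their sign between vectors in both fractions, from 0.28 to 0.44 and 0.27 to 0.47 in total RNA. Signs changed under at least 1 alternative for 4, 3, 7, 4 and 8 of the 10 genes in the 5 comparisons.

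The count of all genes called moved more. In total RNA it was 24, against 62 with a minimum of 0.1 FPKM, 73 with no filter, 60 with all 12 libraries in 1 fit and 19 to 178 with 1 library left out. In polysomal RNA it was 7, against 14 at a minimum of 0.1, 22 with all 12 and 9 to 126. Polysomal against total RNA in control cells called 12, against 41 with all 12, 12 to 26, and 199 without control culture 3, a setting chosen after seeing the data. In RBMX cells it called 196, against 53 with no filter, 70 with quantile normalization, 21 with all 12 and 10 to 42. The difference called 3, against 5 with no filter, 3 to 7, and 7 without control culture 3. With the replicate block the counts were 13, 3, 6, 4 and 5. Nothing in the sources used here says that an equal replicate number pairs cultures between vectors. Same-number deviations correlated at -0.168 to 0.34 between vectors, and at 0.0244 to 0.835 between fractions of 1 vector. These ranges overlap, so the correlations do not settle the pairing. Among the genes named the block changed the call on MAT2A and that on RBMX in polysomal RNA (limma adjusted p = 0.136).

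Leaving out 1 library moved FTO between -0.34 and 0.13 in total and between -0.25 and 0.27 in polysomal RNA. In total RNA the ranges were -0.052 to 0.097 for WTAP (0.011 with median-ratio rescaling), -0.044 to 0.32 for YTHDC1 and -0.086 to 0.025 for YTHDC2. In polysomal RNA they were -0.060 to 0.33 for YTHDF2 and -0.18 to 0.16 for YTHDF3. For polysomal against total RNA in control cells they were -0.094 to 0.34 for YTHDC1 and -0.36 to 0.030 for YTHDF2, and for the difference -0.21 to 0.013 for METTL3. Where no cause is given, the cause was not tested.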
